A study of Mus musculus with 10 samples.

Results

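Blood-derived cells that carried a CD11c reporter into the ischemic mouse brain were compared with the microglia of the same tissue. The comparison used 6 of the 10 RNA sequencing libraries of the study, chosen by their titles and labels: 3 libraries of CD11c-eYFP+ cells from parabiotic mice (replicates 3, 11 and 15) and 3 libraries of CX3CR1+ microglia (replicates 39, 40 and 41). All 28585 genes of the deposited count table were considered, and 15151 had enough counts to be tested. Both groups were sorted from the ipsilateral ischemic hemisphere by fluorescence alone, without antibody staining, and polyadenylated RNA was sequenced.

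The parabiotic donors were C57BL/6 mice, 15 to 16 weeks old, joined by parabiosis to a Tg(Itgax-Venus)1Mnz partner. Parabiosis is a surgical union that gives a pair of animals a shared circulation, and the transgene drives a yellow fluorescent protein from the promoter of Itgax, the gene of CD11c. By this design only cells that came from the partner and used that promoter could be sorted. The microglia donors were CX3CR1CreERT2:Rosa26-tdT mice, 13 to 14 weeks old, in which a drug-inducible Cre recombinase under the fractalkine receptor gene Cx3cr1 turns on a red fluorescent protein. Labelled donors were female. Parabiotic replicate 15 was placed by its title, since its labels give the strain, the transgene and the age but no cell type, sex or word on parabiosis. Genotype, reporter, surgery and age differed together between the groups, and their parts in any difference cannot be told apart. The labels do not say how the ischemia was made or how long before the sort. No label says whether a library came from 1 animal or from a pool, so p-values measure a spread between libraries. That spread was estimated over all 10 libraries of the study, which include 4 transgenic CD11c libraries outside the comparison.

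Microglia are the resident phagocytes of the brain. They arise in the embryo, renew themselves locally, depend on the receptor Csf1r and keep their identity through factors such as Sall1. Monocytes and dendritic cells are made in the bone marrow and enter the brain from the blood after injury, guided by receptors such as Ccr2. Dendritic cells depend on the receptor Flt3 and load peptides on MHC class II molecules to show them to T cells. CD11c marks most dendritic cells, but activated macrophages and some microglia make it too.

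Values below are CPM, the counts of a gene scaled by the TMM method to a common library total, given for microglia replicates 39, 40 and 41 and parabiotic replicates 3, 11 and 15 in that order. Fold changes are log2 values, parabiotic minus microglia, ± SE (n = 3 and 3), from the quasi-likelihood test of edgeR with Benjamini-Hochberg adjustment over all tested genes. A gene is called higher or lower, always in the parabiotic cells, where its adjusted p was under 0.05. The libraries held 31534625 to 35129008 counts and counts for 20312 to 22165 genes. Mitochondrial transcripts took 0.324% to 0.477% of the counts. In multidimensional scaling the leading dimension held 59.3% of the variance and set the microglia, at -3.04 to -2.94, apart from the parabiotic libraries, at 2.74 to 3.06. Libraries of 1 group differed from each other by more than counting noise (chi-square per degree of freedom 43.8 to 114 for pairs of microglia libraries and 34.4 to 54.4 for pairs of parabiotic ones), so none was counted as a copy of another. For pairs of the transgenic CD11c libraries, which enter the estimate of the spread, the value was 18.8 to 342.

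The markers matched the labels in all 6 libraries. Ccr2 was at 6.55, 7.21 and 6.39 CPM in microglia and 785, 620.2 and 789 CPM in parabiotic libraries, and Flt3 at 0.538 to 1.72 against 127 to 160.5 CPM. The microglial genes Sall1 (318 to 467 against 0.152 to 0.395 CPM) and P2ry12 (1590.3 to 2114 against 61.1 to 77.2 CPM) went the other way. The reporter gene Itgax stood at 22.6, 56.9 and 53.7 CPM in microglia and at 542, 442 and 528 CPM in parabiotic libraries (3.50 ± 0.51, edgeR adjusted p = 0.000346). Cx3cr1, whose promoter marks the microglia, was at 1581 to 1858 against 465 to 829.7 CPM and was not called (-1.54 ± 0.59, edgeR adjusted p = 0.0638), although no parabiotic library reached a microglia library. It was called with only the 6 libraries in the fit (adjusted p = 0.000444) or without transgenic replicate 27 (adjusted p = 0.000708). In the fit reported here all 10 libraries share 1 estimate of the spread. The sorts used reporters driven by Itgax and Cx3cr1 and so favoured these directions. The values of these 2 genes are therefore no independent check of the labels, and both were left out of the gene lists. In bulk libraries fewer cells of a type and less RNA per cell cannot be told apart.

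The 2 populations differed in a large part of the transcriptome and in both directions alike. Of the tested genes 5347 were called (35.3%), 2633 higher (17.4%) and 2714 lower (17.9%), and the median fold change over all tested genes was -0.02. Among called genes the lower ones had the larger median change, -1.92 against 1.42 for the higher ones. The 2 sets of calls also differed in level. At a mean of 1 to 10 CPM 588 were higher and 814 lower, and at 10 to 100 CPM 1261 and 983. A change of at least 16-fold was seen in 467 higher and 488 lower genes, and one of at least 64-fold in 200 and 185. Even without a test the libraries of the groups did not overlap in 9130 genes (60.3%), so the counts below are read against a high background. Without microglia replicate 40 the higher genes numbered 1683 and the lower genes 2064. Long intergenic noncoding RNAs had fewer higher than lower calls (35 higher and 77 lower of 374), as did antisense transcripts (52 and 87 of 470). Beside the 17.4% and 17.9% of all tested genes, both had a smaller share of higher calls. The lower share of antisense transcripts was close to that of all tested genes. The library kit does not mark strand, so reads of an antisense gene and of the gene it overlaps cannot be told apart.

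**Figure D1:**
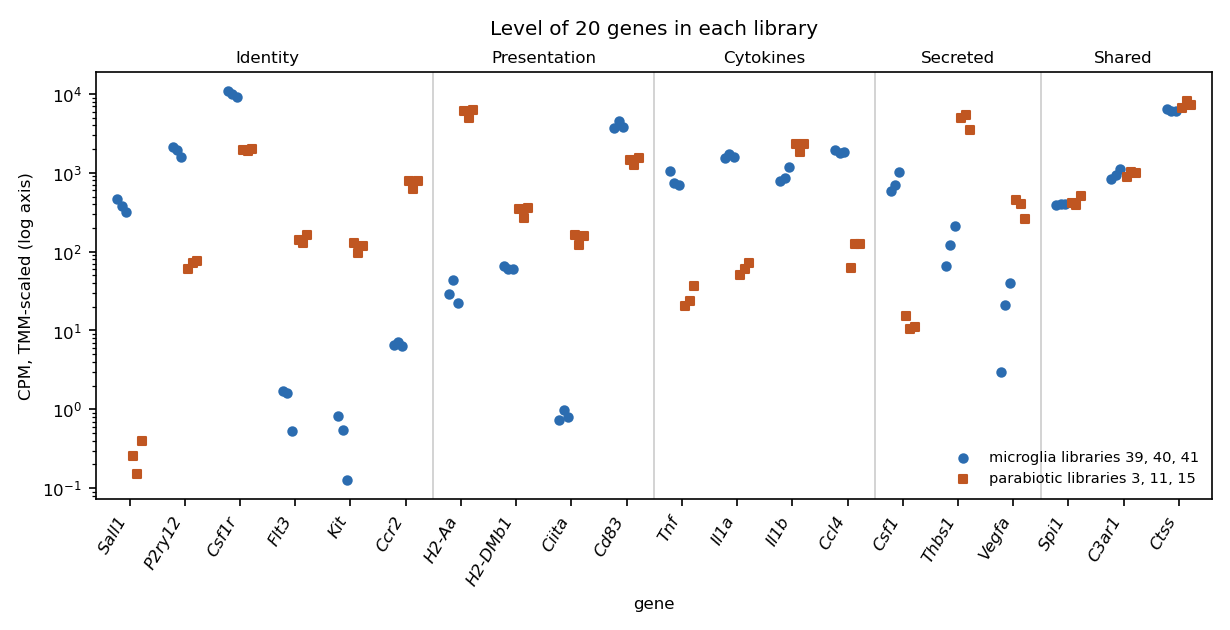
Level of 20 genes in each library (vertical axis, CPM after TMM scaling, log scale), with 1 point per library for microglia replicates 39, 40 and 41 and parabiotic replicates 3, 11 and 15. Microglial genes such as Sall1 and P2ry12 are high in microglia, Flt3, Kit and Ccr2 are high in parabiotic libraries, and Spi1, C3ar1 and Ctss lie at like levels in both.

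Both populations shared abundant phagocyte transcripts. On a scale of counts per kilobase of transcript, set to the same total in every library (TPM), 8 of the 15 most abundant genes were shared. Ctsd, a lysosomal aspartic protease, led in microglia at 17776, 24792 and 32007, and was 6th in the parabiotic cells at 12540.1, 14816 and 14748. Apoe, a lipid carrier, led in the parabiotic cells at 36584, 53079 and 56709.9 TPM, against 10702, 10941 and 17312 in microglia. Lyz2, the lysozyme of myeloid cells, came 2nd there and was 34th in microglia, and Cd74, the invariant chain of MHC class II, came 3rd there and 339th in microglia. In the other direction the complement genes C1qa and C1qc and the chemokine gene Ccl4 were among the 15 in microglia alone. Ccl4 ranked 13th in microglia and 232nd in the parabiotic cells. The cysteine protease gene Ctss ranked 5th and 4th, and its levels lay close together (6521, 6079.8 and 6033 CPM against 6739, 8100 and 7258 CPM, 0.25 ± 0.18).

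For 768 genes (5.07% of those tested) the 95% interval of the fold change lay within -0.5 to 0.5, which bounds the difference rather than failing to find one. The most abundant of them included the chemoattractant-binding receptor Ccrl2 (865, 854 and 1166 CPM against 772, 973 and 976 CPM), the complement receptor C3ar1 (830, 946 and 1103 against 896, 1025 and 1009.7 CPM) and the leukocyte integrin chain Itgb2. Spi1, the master regulator of myeloid cells, was at 395, 404 and 402 against 411, 391 and 504 CPM (0.12 ± 0.16). The groups overlapped for each of these except Itgb2. The other 9036 uncalled genes had intervals that reached past these limits, so their levels were not shown to be alike.

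**Figure D2:**
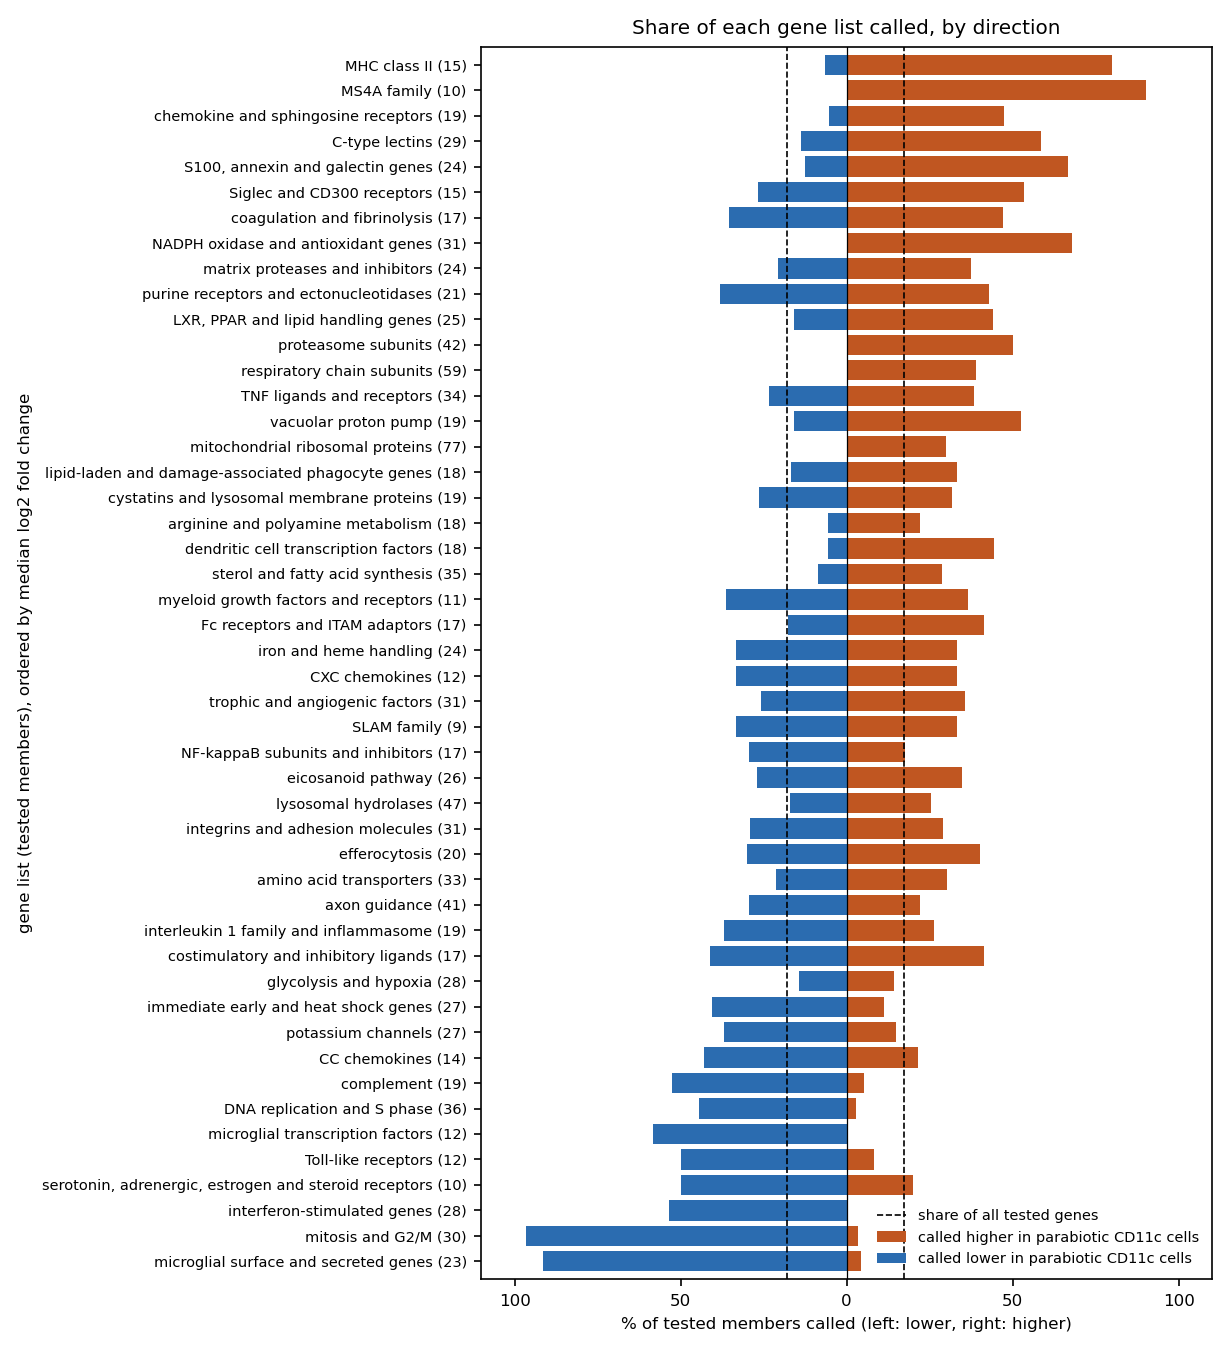
Share of the tested members of each gene list called higher (right) or lower (left) in parabiotic cells, in percent, with dashed lines at the shares of all tested genes, 17.4% and 17.9%. MS4A and MHC class II genes reach far to the right, and mitotic genes and microglial surface genes far to the left.

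Transcription factors of microglial identity were lower in part. Of the 12 on the list 7 were lower and 0 higher (median -0.69). Sall3, a paralogue of Sall1, was at 141, 159.6 and 173 CPM in microglia and 0.115, 0.0608 and 0.334 CPM in parabiotic libraries (-9.84 ± 0.63, edgeR adjusted p = 2.93e-06). Mef2c, a factor active in microglia and neurons, was at 495 to 506 against 92.9 to 105 CPM (-2.36 ± 0.28), and Smad3, which relays TGF-beta, at 97.3 to 114 against 17.2 to 22.9 CPM (-2.40 ± 0.31). The groups did not overlap in any of these. Irf8, a factor of microglia and dendritic cells alike, was lower (-0.58 ± 0.17, edgeR adjusted p = 0.0224), but not called without microglia replicate 40 or 41 or without parabiotic replicate 3 or 11 (adjusted p = 0.0573 to 0.105).

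Dendritic cell factors were higher in part. Of the 18 on the list 8 were higher and 1 was lower (median 0.37, and 1.04 without microglia replicate 40). Runx3, which acts in dendritic and cytotoxic cells, was at 2.54, 3.19 and 1.77 CPM in microglia and 161, 151 and 132 CPM in parabiotic libraries (5.88 ± 0.54, edgeR adjusted p = 1.9e-05). Bcl11a followed at 0.443 to 0.829 against 12.4 to 18.8 CPM (4.65 ± 0.53), and Nfil3, needed for the cDC1 subset, at 34.2 to 86.2 against 291 to 322 CPM (2.43 ± 0.33). Ikzf1, a lymphoid and myeloid factor, was the lower member (-1.18 ± 0.16). Id2 (385 to 494 against 385 to 484 CPM) and Zeb2 (306 to 395 against 326 to 370.4 CPM), both used by dendritic cells, overlapped between the groups.

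Several growth factor receptors and ligands differed between the populations. Csf1r, the receptor on which microglia depend, was at 10791, 10047 and 9114 CPM in microglia and 1933, 1870 and 2021 CPM in parabiotic libraries (-2.36 ± 0.26, edgeR adjusted p = 6.38e-05). Its ligand Csf1 was at 594, 709.7 and 1019 against 15.2, 10.5 and 11 CPM (-5.98 ± 0.45, edgeR adjusted p = 6.18e-06). The stem cell factor receptor Kit was at 0.819, 0.553 and 0.127 against 129, 96.6 and 117 CPM (7.81 ± 1.06, edgeR adjusted p = 0.000221). Its ligand Kitl went the other way, at 15.3 to 25.2 CPM in microglia and 0.517 to 1.55 CPM in parabiotic libraries (-4.38 ± 0.56). Flt3l, the ligand of Flt3, was low in both groups, overlapped between them and was not called (1.89 to 2.12 against 1.31 to 2.01 CPM, -0.38 ± 0.40). Csf2rb, a shared receptor chain for GM-CSF, was modestly higher (167 to 209 against 362 to 594 CPM, 1.31 ± 0.31). Of the 11 tested members of this list 4 were higher and 4 lower.

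Genes of antigen presentation on MHC class II were mostly higher in the parabiotic cells. Classical chains (H2-A and H2-E) present the peptide, Cd74 guards the groove, H2-DM exchanges peptides, H2-O restrains H2-DM, and the transactivator Ciita switches the genes on through a promoter complex that includes NF-Y bound at a Y box. The proximal promoters of the chains the results turn on are shown here from the RefSeq table (build GRCm38.p6), as the 120 bases before each start site, 5′ to 3′ on the strand of the gene, with the Y box core ATTGG, or its reverse complement, in capitals.
H2-Aa (chr17:34287824-34287943, minus strand): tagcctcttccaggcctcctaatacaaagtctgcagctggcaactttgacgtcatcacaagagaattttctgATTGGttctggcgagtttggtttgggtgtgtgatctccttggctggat
H2-Eb1 (chr17:34305747-34305866, plus strand): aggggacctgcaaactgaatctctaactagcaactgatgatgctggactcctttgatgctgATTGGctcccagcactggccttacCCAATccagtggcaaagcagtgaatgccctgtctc
H2-DMb1 (chr17:34153071-34153190, plus strand): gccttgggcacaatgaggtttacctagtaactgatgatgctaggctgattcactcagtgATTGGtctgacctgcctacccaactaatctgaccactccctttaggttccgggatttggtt
H2-Oa (chr17:34092259-34092378, plus strand): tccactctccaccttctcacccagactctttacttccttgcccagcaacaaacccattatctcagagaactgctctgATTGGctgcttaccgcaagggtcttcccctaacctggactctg
H2-Ob (chr17:34238785-34238904, plus strand): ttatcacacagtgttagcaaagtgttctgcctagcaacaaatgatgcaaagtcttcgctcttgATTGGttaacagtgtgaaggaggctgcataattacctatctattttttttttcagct
These promoters stand for the classical chains, the exchange factor and its restrainers. Searched on both strands over 250 bases, the letters ATTGG were in 8 of the 8 H2 chain genes that the table holds, against 33.8% of all 32851 promoters and 37.5% of all 27025 genes. Of the 11 list members with a promoter there 10 held the letters, as did 7 of the 8 called higher. Rfx5, called lower, and Rfxank, not called, held them as well. The promoter of the classical chain H2-Ab1 is not in the table. A match describes the letters alone and shows no binding.

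Of the 15 members tested 12 were higher and 1 was lower, with a median of 2.75. H2-Ab1 was at 52.8, 75.3 and 48.1 CPM in microglia and 10131, 7703 and 10220.4 CPM in parabiotic libraries (7.32 ± 0.61, edgeR adjusted p = 1.16e-05), and H2-Eb1 at 24, 36.7 and 19.5 against 5969, 4451 and 6074 CPM (7.68 ± 0.63). Ciita was at 0.734, 0.982 and 0.791 against 161, 121 and 159.7 CPM (7.45 ± 0.91). Parabiotic replicate 11 was the lowest of its group for each of these and still lay far above every microglia library. The accessory chains differed less, with H2-DMb1 at 59.7 to 66.7 against 266 to 363 CPM (2.38 ± 0.34) and H2-Oa at 14, 17.7 and 15.1 against 118, 79.4 and 117 CPM (2.75 ± 0.62). H2-Ob, whose promoter holds the same box, was at 30.7 to 37.1 against 50.6 to 85.6 CPM and was not called (1.00 ± 0.47, edgeR adjusted p = 0.124), but passed with only the 6 libraries in the fit (adjusted p = 0.00175) or without transgenic replicate 27 (adjusted p = 0.0121). Rfx5, a subunit of the factor bound beside NF-Y, was the lower member (it fell by 1.00 ± 0.30 on the log2 scale, edgeR adjusted p = 0.0235), but was not called without microglia replicate 39 or 40 or parabiotic replicate 3 or 11 (adjusted p = 0.0596 to 0.0968). H2 genes have close copies, and the labels do not say how reads shared between copies were counted.

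Costimulatory and inhibitory ligands, which set how a T cell reads the presented peptide, went both ways, with 7 higher and 7 lower of 17. Btla, an inhibitory receptor, was at 0.452, 0.461 and 0.19 CPM in microglia and 52, 46.9 and 62.6 CPM in parabiotic libraries (7.17 ± 0.79, edgeR adjusted p = 5.61e-05). Tnfsf4 (OX40 ligand) was at 0 to 0.0921 against 10.8 to 23.3 CPM (8.48 ± 1.02) and Cd40 at 7.44 to 10.5 against 28.1 to 38.4 CPM (1.89 ± 0.24). Cd83, widely used as a marker of mature dendritic cells, was higher in microglia, at 3753, 4536 and 3776 against 1447, 1253 and 1525 CPM (-1.51 ± 0.19, edgeR adjusted p = 0.000157). Nectin2 was lower too (70.5 to 96.6 against 4.77 to 5.49 CPM, -3.96 ± 0.25). For the ligands of CD28 the values split, since Cd80 was higher (8.9 to 13.3 against 31.8 to 37.1 CPM, 1.54 ± 0.35) and Cd86 overlapped between the groups (293 to 330 against 205 to 328 CPM).

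Proteasome subunits, which cut proteins into peptides, shifted by a small amount in 1 direction. Of 42 members 21 were higher and 0 lower, with a median of 0.65. Psma7 was at 89, 78.8 and 97.8 against 184, 171 and 168 CPM (0.98 ± 0.22, edgeR adjusted p = 0.00527). The number called depended on single libraries, with 6 without microglia replicate 39, 4 without microglia replicate 40, and 9, 13 and 12 without parabiotic replicates 3, 11 and 15. With only these 6 libraries in the fit it was 36.

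Most lysosomal hydrolases were not called, and single members differed widely in both directions. Of 47 tested 12 were higher and 8 lower, the latter a share close to that of all tested genes, and the median was 0.01, turning to -0.07 under upper quartile scaling. Napsa, an aspartic protease of dendritic cells, was at 0.452, 0.399 and 0.348 CPM in microglia and 342, 242 and 297 CPM in parabiotic libraries (9.51 ± 0.56, edgeR adjusted p = 2.18e-06). Acp5, an acid phosphatase of macrophages and osteoclasts, was at 3.5, 2.86 and 4.65 against 242, 213 and 231 CPM (5.96 ± 0.27, edgeR adjusted p = 4.4e-07). The heparan sulfatase Sgsh (10.7 to 12.6 against 53.7 to 56.9 CPM) and the acid lipase Lipa (157 to 324 against 1076 to 1223 CPM) were higher as well. The opposite held for the cysteine protease Ctsf, at 298, 261 and 214 against 3.62, 5.93 and 10.1 CPM (-5.30 ± 0.48, edgeR adjusted p = 1.68e-05). Arsb, which removes sulfate from dermatan sulfate, was at 456, 461 and 460.4 against 29.9, 24.8 and 39.6 CPM (-3.87 ± 0.39). The abundant proteases Ctsd and Ctsb were not called. For Ctsb the groups overlapped, microglia alone ran from 8677 to 19372 CPM, and the gene was called higher without microglia replicate 41 (adjusted p = 0.0334). The number of lower hydrolases was 14 without transgenic replicate 27 and 18 with only the 6 libraries in the fit.

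The vacuolar proton pump, which acidifies these compartments, had 10 of 19 subunits higher and 3 lower (median 0.59), the latter a share close to that of all tested genes. Atp6v1a, a catalytic subunit, was at 175 to 247 against 381 to 510 CPM (1.06 ± 0.23), and Atp6v0d2, a subunit of osteoclasts and some macrophages, at 0.169 to 0.475 against 9.62 to 12.1 CPM (4.83 ± 0.57). Its alternative membrane subunit Atp6v0a2 was lower (276 to 380 against 109 to 132 CPM, -1.44 ± 0.25). Without microglia replicate 39 or 40 the number higher was 6 or 5.

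Surface receptors that recognise microbes and dead cells differed from family to family. C-type lectins were mostly higher (17 higher and 4 lower of 29, median 1.91). Cd209a, a lectin of monocyte-derived and cDC2 cells, was at 0.593, 2.18 and 1.52 CPM in microglia and 121, 85.3 and 249 CPM in parabiotic libraries (6.73 ± 1.06, edgeR adjusted p = 0.000604). Clec4n (dectin-2) was at 4.49 to 14.3 against 87.3 to 167 CPM (3.86 ± 0.55), Clec4d at 0.593 to 1.6 against 31.8 to 78.1 CPM (5.58 ± 0.83) and the glucan receptor Clec7a (dectin-1) at 185 to 374 against 741 to 962 CPM (1.53 ± 0.24). MS4A membrane proteins had 9 of 10 higher and 0 lower (median 2.42), with Ms4a7 at 14, 44.7 and 70.8 against 330.1, 502 and 586 CPM (3.45 ± 0.54). Cd209 and Ms4a genes have close copies, so single members are uncertain.

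Toll-like receptors leaned the other way, with 6 of 12 lower and 1 higher (median -0.74). Tlr7, a sensor of single-stranded RNA, was at 500.5, 412 and 399 CPM in microglia and 102, 136 and 127 CPM in parabiotic libraries (-1.85 ± 0.20, edgeR adjusted p = 6.06e-05). Its neighbour Tlr8, a sensor of the same class, was the higher member, at 4.94, 8.87 and 7.6 against 65.6, 78.5 and 75 CPM (3.36 ± 0.23, edgeR adjusted p = 3.77e-06). Tlr2, which binds bacterial lipoproteins, was at 1699 to 2171 against 695 to 778 CPM (-1.37 ± 0.16), and Tlr3, the receptor of double-stranded RNA, at 123 to 176 against 16.8 to 31.5 CPM (-2.60 ± 0.47). The endosomal RNA sensors thus differed in which member was higher in which population.

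Among Siglec and CD300 receptors 8 of 15 were higher and 4 lower (median 1.49). Cd300a, an inhibitory lipid receptor, was at 79.3, 112 and 87.9 against 459, 531 and 594 CPM (2.51 ± 0.22, edgeR adjusted p = 1.6e-05). Siglech, used as a mark of microglia and of plasmacytoid dendritic cells, was at 848, 859 and 568 against 29, 25.6 and 36.9 CPM (-4.64 ± 0.65). Pirb, an inhibitory immunoglobulin-like receptor, was the call with the lowest p of the Fc receptor and adaptor list (28.4 to 33.9 against 216 to 295 CPM, 3.04 ± 0.30). On that list 7 of 17 were higher and 3 lower, the latter a share close to that of all tested genes. The activating receptor Fcgr3 was lower (823 to 893 against 320 to 379 CPM, -1.29 ± 0.19). Slamf7, an adhesion receptor of the SLAM family, was at 3.11 to 4.31 against 169 to 195 CPM (5.71 ± 0.40), and its list had 3 of 9 in each direction.

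Complement genes were mostly lower (10 of 19, 1 higher, median -0.64). C4b was at 345, 290.2 and 277 CPM in microglia and 23.2, 25.6 and 24 CPM in parabiotic libraries (-3.65 ± 0.31, edgeR adjusted p = 1.27e-05). The starter chains C1qa (-1.41 ± 0.28) and C1qc (-1.30 ± 0.23) were lower but stayed abundant, at 987 to 1686 and 1514 to 2403 CPM in parabiotic libraries. Properdin, Cfp, which stabilises the alternative pathway, was the higher member, at 8.02, 15.4 and 7.88 against 451, 255 and 362 CPM (5.09 ± 0.50). Genes for the clearance of dead cells went both ways (8 higher and 6 lower of 20). Anxa1, a phospholipid binder that limits inflammation, was at 0.537, 0.921 and 0.76 against 330.3, 281 and 294 CPM (8.67 ± 0.41, edgeR adjusted p = 4.98e-07), while the receptor Mertk (603 to 751 against 199.6 to 232 CPM) and its bridging protein Pros1 (487 to 550.4 against 69.3 to 74.6 CPM) were lower.

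Signals that attract and activate other cells came from different genes in the populations. Among CC chemokines 6 of 14 were lower and 3 higher. Ccl4 was at 1941, 1788 and 1830.2 CPM in microglia and 62.7, 126 and 125 CPM in parabiotic libraries (-4.15 ± 0.30, edgeR adjusted p = 5.7e-06). Ccl3 was at 963 to 1173 against 86.1 to 146 CPM (-3.08 ± 0.23) and Ccl12, a ligand of Ccr2, at 213 to 325 against 3.36 to 5.53 CPM (-6.05 ± 0.58). Ccl22 (0.728 to 1.44 against 35.4 to 52.9 CPM) and Ccl17 (0.0633 to 0.141 against 4.49 to 5.69 CPM), ligands of the T cell receptor Ccr4, were higher. Without microglia replicate 40 or parabiotic replicate 11 or 15 only 3 were lower, but Ccl3, Ccl4 and Ccl12 were called with every library left out in turn. In the CXC family Cxcl10 was lower (238 to 398 against 10.5 to 18.6 CPM, -4.33 ± 0.62) and Cxcl16 higher (268 to 377 against 654 to 698 CPM, 1.06 ± 0.18), with 4 of 12 in each direction.

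Receptors for chemokines and sphingosine phosphate were higher as a list (9 higher and 1 lower of 19, median 2.37). The median was 1.75, 1.51, 1.2 and 1.69 without microglia replicates 40 and 41 and parabiotic replicates 11 and 15, where 21 or 22 members were tested, and 9 or 10 were higher with any library left out. Ccr7, which leads dendritic cells to lymph nodes, was at 4.58, 2.27 and 2.34 against 367, 226 and 307 CPM (6.61 ± 0.79, edgeR adjusted p = 0.000104). Ccr1, a receptor of Ccl3, was at 34.1, 22.7 and 13.2 against 502, 381 and 378 CPM (4.17 ± 0.56), and Cxcr4 at 20 to 33.3 against 302 to 365 CPM (3.74 ± 0.38). Ackr3, the scavenging receptor that shares its ligand with Cxcr4, was the lower member (4.63 to 12.6 against 0 to 0.638 CPM, -4.92 ± 0.87). The transcripts of Ccl3, Ccl4 and Ccl12 were thus high in the cells with little Ccr1 and Ccr2.

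**Figure D3:**
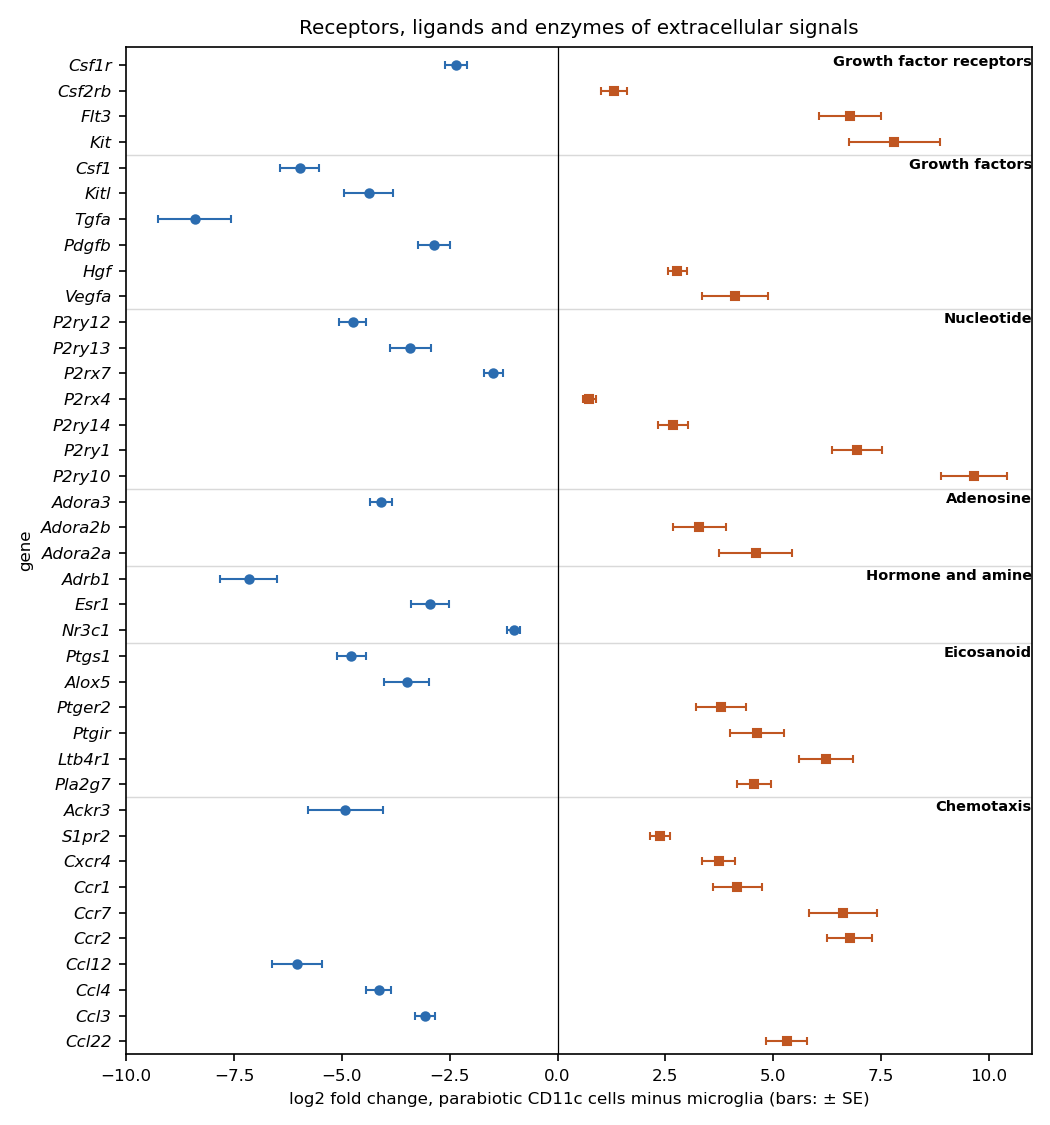
Log2 fold change, parabiotic minus microglia, of ligand and receptor genes, with bars of 1 SE (3 libraries per group). Receptors such as Ccr2, Ccr7, Ccr1, Flt3 and Kit lie to the right of 0, and the ligands Csf1, Kitl, Ccl3, Ccl4 and Ccl12 to the left.

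The interleukin 1 pair was split. Il1a was at 1564, 1723 and 1569 CPM in microglia and 51.3, 60.6 and 72.7 CPM in parabiotic libraries (-4.72 ± 0.22, edgeR adjusted p = 4.69e-07). Il1b was at 791, 872 and 1197 against 2355, 1855 and 2353 CPM (1.20 ± 0.23, edgeR adjusted p = 0.00213). Il1r2, the decoy receptor that binds interleukin 1 without signalling, was at 0.904, 0.737 and 0.918 against 809, 452 and 540.2 CPM (9.45 ± 0.86). No library of 1 group reached the other group in any of the 3 genes. Of the inflammasome sensors Nlrp3 was lower (293 to 454 against 101 to 120.1 CPM, -1.87 ± 0.25) and Nlrc4 higher (1.27 to 2.7 against 16.8 to 28.1 CPM, 3.56 ± 0.40). The list had 5 of 19 higher and 7 lower.

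TNF ligands and receptors had 13 of 34 higher and 8 lower, with 8 higher without microglia replicate 39. Tnf itself was at 1065, 736 and 704 against 20.5, 24 and 36.5 CPM. Tnfsf13b (BAFF), a survival factor of B cells, was lower too (22.7 to 27.7 against 4.74 to 6.22 CPM, -2.25 ± 0.21). Several regulators of NF-kappaB were lower. Nfkbiz was at 1917, 2035 and 1692 against 161, 136 and 223 CPM (-3.44 ± 0.23, edgeR adjusted p = 3.28e-06), Tnfaip3 (A20) at 1281 to 1870.3 against 266 to 376 CPM and Nfkbia at 1103 to 1370.3 against 266 to 352 CPM. The inhibitor Nfkbie was not called (153 to 157 against 209.8 to 338 CPM, 0.77 ± 0.35), and Tnip3, an A20 partner, was higher, at 1.74 to 3.08 against 69.4 to 102 CPM (5.03 ± 0.46). Over the whole NF-kappaB list 5 of 17 were lower and 3 higher, and 1 was higher without microglia replicate 40 or 41 or parabiotic replicate 3. Its higher share was close to that of all tested genes.

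A list of immediate early and heat shock genes, which cells switch on within minutes of a stimulus or stress and which tissue dissociation is known to induce, had 11 of 27 lower and 3 higher. Egr1 was at 2705, 2613 and 1711 CPM in microglia and 71.7, 114 and 166 CPM in parabiotic libraries (-4.32 ± 0.41, edgeR adjusted p = 2.43e-05), and Jun at 1159 to 1761 against 269 to 412 CPM (-2.12 ± 0.26). Of the Nr4a orphan receptors 2 were higher and the other was not called. Nr4a2 was at 4.72, 7.58 and 12.9 against 323, 248 and 274 CPM (5.07 ± 0.61, edgeR adjusted p = 0.000102), Nr4a3 at 16.6 to 18.9 against 112 to 180.2 CPM (2.97 ± 0.63), and Nr4a1 overlapped (1047 to 1303 against 964 to 1403 CPM). Fos overlapped as well (1315 to 1492 against 1429 to 2356 CPM, 0.51 ± 0.29). How much of these levels the dissociation made was not tested.

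Interferon-stimulated genes were lower where called, with 15 of 28 lower, 0 higher and a median of -1.48. Stat2, which relays type I interferon, was at 299, 180.3 and 259 against 94.9, 90.9 and 85.9 CPM (-1.44 ± 0.27, edgeR adjusted p = 0.00195). Ifi27l2a was at 198 to 323 against 34.1 to 34.6 CPM (-2.82 ± 0.35). The number lower was 8, 8, 7 and 9 without microglia replicate 41 and parabiotic replicates 3, 11 and 15, 24 without transgenic replicate 27, and 26 with only the 6 libraries in the fit. Isg15 did not overlap between the groups (66.6 to 115 against 28.3 to 40.8 CPM) and was not called (edgeR adjusted p = 0.0859), but passed with only the 6 libraries in the fit (adjusted p = 0.00123) or without transgenic replicate 27 (adjusted p = 0.00592).

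Receptors for small molecules separated the populations sharply. ATP and ADP leaking from damaged cells are sensed by P2 receptors, and adenosine, into which ectonucleotidases turn them, by adenosine receptors. Of 21 such genes 9 were higher and 8 lower. P2ry10, a receptor of lysophospholipids despite its name, was at 0.339, 0.368 and 0.158 CPM in microglia and 300.2, 204 and 209 CPM in parabiotic libraries (9.66 ± 0.77, edgeR adjusted p = 9.01e-06). The ADP receptor P2ry13 was lower with P2ry12 (577 to 609 against 45.6 to 65.5 CPM, -3.41 ± 0.47), while the ADP receptor P2ry1 was higher (0.0307 to 0.141 against 6 to 17 CPM, 6.94 ± 0.58). The ATP-gated channels were split too, with P2rx7 lower (180.3 to 251 against 67.5 to 92.4 CPM, -1.49 ± 0.22) and P2rx4 higher (182 to 236 against 325 to 369.5 CPM, 0.73 ± 0.15).

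The 4 adenosine receptors fell into pairs. Adora1 was at 18.6, 17.5 and 15 CPM in microglia and had 0 counts in each of the parabiotic libraries, at least 572-fold lower taking 3 counts over all 3 libraries as the floor. Adora3 was at 35.7 to 39.2 against 1.49 to 2.59 CPM (-4.09 ± 0.26). Both of these couple to inhibition of cyclic AMP synthesis. Those that raise cyclic AMP were the higher ones, with Adora2b at 1.58 to 2.79 against 14.1 to 30.9 CPM (3.29 ± 0.62) and Adora2a at 0.184 to 0.254 against 4.9 to 6.28 CPM (4.59 ± 0.84). Of the ectonucleotidases, Entpd1, which acts on ATP, was lower but still present (314 to 442 against 156 to 176 CPM). Nt5e, which makes adenosine, was higher (0.113 to 0.222 against 9.2 to 20.9 CPM, 6.48 ± 1.13). The 4 receptors, Entpd1 and Nt5e were called with every library left out in turn.

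Receptors for amines and steroids had 5 of 10 lower and 2 higher (median -1.45, and -2.78 and -2.59 without parabiotic replicates 3 and 11, where 11 were tested). Adrb1 was at 41.7, 27.8 and 13.2 CPM in microglia and 0.0574, 0.335 and 0.182 CPM in parabiotic libraries (-7.16 ± 0.66, edgeR adjusted p = 1.87e-05). Its protein is a receptor of noradrenaline and adrenaline. The estrogen receptor Esr1 (51.6 to 63.6 against 5.72 to 10.3 CPM) and the mineralocorticoid receptor Nr3c2 (2.66 to 5.85 against 0.0287 to 0.0911 CPM) were lower. The serotonin receptor Htr7 had 0 counts in the microglia libraries and stood at 48.5, 28.3 and 32.1 CPM in the parabiotic ones, at least 1205-fold higher than a floor of 3 counts over the group.

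Prostaglandin and leukotriene genes had 9 of 26 higher and 7 lower. Ptgs1 (COX-1) was at 847, 647 and 613 against 29, 15.4 and 32.5 CPM (-4.78 ± 0.33, edgeR adjusted p = 4.3e-06), while the inducible Ptgs2 overlapped between the groups and varied within microglia from 130 to 757 CPM. Pla2g7, which degrades platelet-activating factor, was at 47.2 to 50 against 958 to 1362 CPM (4.55 ± 0.40). For leukotrienes the synthetic enzyme Alox5 was lower (34.1 to 96.7 against 2.64 to 6.84 CPM, -3.50 ± 0.52) and the leukotriene B4 receptor Ltb4r1 higher (0.19 to 0.368 against 17 to 27.6 CPM, 6.23 ± 0.63).

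Growth factors for vessels and tissue went both ways, with 11 of 31 higher and 8 lower. Vegfa, the main angiogenic factor, was at 2.97, 21.1 and 40 CPM in microglia and 453, 402 and 257 CPM in parabiotic libraries (4.12 ± 0.77, edgeR adjusted p = 0.00178). Hgf was at 9.21 to 10.4 against 61.8 to 82.9 CPM (2.78 ± 0.22). The EGF receptor ligand Tgfa was at 185, 186 and 174 CPM in microglia and at 0, 0.608 and 1 CPM in parabiotic libraries (-8.41 ± 0.85), and Pdgfb was lower (171 to 183 against 17.3 to 36.1 CPM, -2.87 ± 0.37). Igf1 overlapped between the groups (19, 102 and 170.4 against 27.4, 39.8 and 70.5 CPM). Microglia replicate 39 was the lowest of its group for Vegfa, Igf1, Gpnmb, Lgals3 and Spp1, and replicate 41 the highest, so the microglia varied among themselves in these genes.

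Clotting and fibrinolysis genes had 8 of 17 higher and 6 lower (median 1.46). F7, coagulation factor VII, was at 0, 0.0614 and 0.0633 CPM in microglia and 52.4, 55.9 and 45.4 CPM in parabiotic libraries (10.19 ± 0.45, edgeR adjusted p = 3.75e-07), and F10, its substrate, at 0, 0.0921 and 0 against 40.7, 33.6 and 29.5 CPM. Thbs1, thrombospondin 1, was at 65.7, 122 and 211 against 4954, 5371 and 3527 CPM (5.12 ± 0.64). The protease inhibitor Serpine2 was lower (685 to 1787 against 12.3 to 29.2 CPM, -5.88 ± 0.64). Thbd, the thrombin receptor that starts anticoagulation, was higher (4.69 to 11 against 72.5 to 82 CPM, 3.38 ± 0.48).

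Matrix proteases and their inhibitors had 9 of 24 higher and 5 lower. The gelatinase Mmp2 was at 91.1, 113 and 113 against 4.02, 4.29 and 4.46 CPM (-4.63 ± 0.40, edgeR adjusted p = 1.31e-05), and its membrane-bound activator Mmp14 at 82 to 135 against 539 to 648 CPM (2.46 ± 0.26). The inhibitors divided too, Timp1 being higher (0.0847 to 0.127 against 10.6 to 16.6 CPM) and Timp2 lower (1449 to 2094 against 469 to 738 CPM).

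Adhesion molecules had 9 of 31 members in each direction. Itga4 and Itgb7, which pair to bind Vcam1 and the gut addressin, were at 9.43 to 13 against 129 to 143 CPM (3.62 ± 0.47) and 0.348 to 1.57 against 221 to 351 CPM (7.93 ± 0.77, edgeR adjusted p = 2.64e-05). Itgae, which also pairs with Itgb7, and its ligand Cdh1 (E-cadherin) were both higher, Itgae at 3.39 to 5.03 against 79.8 to 107 CPM and Cdh1 at 0 to 0.0633 against 59.1 to 105 CPM (10.89 ± 1.01). Vcam1 (99.7 to 189 against 7.09 to 21.3 CPM) and Icam1 (707 to 906 against 104 to 135 CPM) were lower, as was Itgb3 (97.9 to 104 against 1.75 to 1.89 CPM, -5.80 ± 0.51). The common chain Itgb1 was at 571, 572 and 641 against 594, 577 and 606 CPM, with a fold change of 0 ± 0.14.

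Calcium-binding S100 proteins, annexins and galectins had 16 of 24 higher and 3 lower (median 1.79). S100a6 was at 0.96, 0.952 and 0.285 against 119, 113 and 95.5 CPM (7.20 ± 0.76, edgeR adjusted p = 4.56e-05), S100a11 at 0.791 to 1.27 against 83.7 to 97.2 CPM (6.37 ± 0.45) and Anxa2 at 36.4 to 85.1 against 426 to 509 CPM (2.97 ± 0.33). Lgals3, a galectin of phagocytes, was at 24, 95.3 and 179 against 1929.9, 1587 and 1360.3 CPM (4.03 ± 0.62). Axon guidance genes, which also steer immune cells, had 9 of 41 higher and 12 lower. Among the semaphorin receptors Plxnd1 (6.04 to 10.3 against 137 to 138 CPM) and Plxna1 (3.87 to 9.05 against 89 to 99.6 CPM) were higher and Plxna4 (45.8 to 73.2 against 2.37 to 4.4 CPM) lower.

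Of 18 genes that mark lipid-laden and damage-associated phagocytes 6 were higher (33.3%) and 3 lower (16.7%), with a median of 0.56. The lower share was close to that of all tested genes. Gpnmb, a glycoprotein of lipid-loaded macrophages, was at 8.08, 85.3 and 178 CPM in microglia and 7134, 8035 and 6689 CPM in parabiotic libraries (6.33 ± 0.87, edgeR adjusted p = 0.000254). Fabp5, a fatty acid carrier, was at 5.62 to 38.4 against 391 to 451 CPM (4.29 ± 0.64). The cystatin Cst7 (95.6 to 287 against 17.8 to 24.1 CPM) and the tetraspanin Cd9 (1015 to 1641 against 475 to 539 CPM) were lower. Spp1, at 1722, 5342 and 7546 against 5214, 7756 and 7544 CPM, overlapped between the groups, as did Lpl.

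Lipid regulators had 11 of 25 higher and 4 lower, the latter 2 with any of the 6 libraries left out. Their lower share was close to that of all tested genes. Nr1h3 (LXR-alpha), which responds to oxysterols, was at 1.16, 2.39 and 3.1 against 22.9, 20.7 and 27.1 CPM (3.41 ± 0.36, edgeR adjusted p = 4.69e-05), and Pparg at 0.198 to 0.645 against 9.64 to 15.1 CPM (4.74 ± 0.55). Plin2, which coats lipid droplets, was at 211 to 638 against 2024 to 2591 CPM (2.40 ± 0.37). Ch25h, which makes an oxysterol from cholesterol, was lower, at 50, 97.7 and 181 against 0.862, 0.943 and 1.61 CPM (-6.58 ± 0.73). The cholesterol exporter Abca1, an LXR target, was lower (-0.82 ± 0.29, edgeR adjusted p = 0.0466), a call that ended when any of the 6 libraries was left out (adjusted p = 0.094 to 0.155).

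Redox genes were higher as a list, with 21 of 31 tested members higher, 0 lower and a median of 0.91 (1 lower without parabiotic replicate 3, and 3 with only the 6 libraries in the fit). NADPH oxidase makes superoxide for killing, and glutathione, thioredoxin and peroxiredoxin systems detoxify its products. Many of the latter carry an antioxidant response element, bound by Nfe2l2, in their promoters. It is shown in capitals for the members called higher with a match within 150 bases of the start and a log2 fold change over 1, 5′ to 3′ on the strand of the gene (build GRCm38.p6), and appears here as the reverse complement of TGACNNNGC.
Gclm (chr3:122245407-122245526, plus strand): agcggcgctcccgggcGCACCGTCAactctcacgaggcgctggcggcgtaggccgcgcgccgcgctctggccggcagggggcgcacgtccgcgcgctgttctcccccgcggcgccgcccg
Txnrd1 (chr10:82859056-82859175, plus strand): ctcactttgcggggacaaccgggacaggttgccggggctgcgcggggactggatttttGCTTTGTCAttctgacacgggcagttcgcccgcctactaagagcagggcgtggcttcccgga
Prdx1 (chr4:116685449-116685568, plus strand): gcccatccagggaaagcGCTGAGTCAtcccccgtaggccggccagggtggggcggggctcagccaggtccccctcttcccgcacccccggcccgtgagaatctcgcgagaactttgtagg
Over 250 bases and both strands the letters were in 5 of 27 redox genes with a promoter in the table (18.5%) and in 4 of the 17 called higher, against 11.5% of all genes. The share is small, and a match is a description, not a site.

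Gclm, a subunit of the enzyme that limits glutathione synthesis, was at 26, 26.1 and 26.1 CPM in microglia and 222, 107 and 98.7 CPM in parabiotic libraries (2.45 ± 0.42, edgeR adjusted p = 0.00101). Txnrd1 was at 137, 185 and 144 against 539.9, 322 and 299 CPM (1.32 ± 0.25) and Prdx1 at 186, 218 and 287 against 886, 704 and 692 CPM (1.72 ± 0.28). Parabiotic replicate 3 was the highest of its group for these 3 genes and for Gsr, the glutathione reductase (42 to 56.5 against 220.5 to 499.5 CPM, 2.94 ± 0.56). Prdx6 was at 47.9 to 69.6 against 299.5 to 423 CPM (2.59 ± 0.33). Cybb, the catalytic chain of the oxidase, was at 134, 191 and 332 against 840.3, 887 and 948 CPM (2.03 ± 0.29, edgeR adjusted p = 0.000308).

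Arginine can be used by arginase or by nitric oxide synthase. Arg1 was at 1.38, 1.78 and 1.17 CPM in microglia and 217, 89.3 and 58.6 CPM in parabiotic libraries (6.39 ± 1.65, edgeR adjusted p = 0.0114), and without a filter on low counts it was not called (adjusted p = 0.0767). Arg2 was at 0.254 to 0.553 against 16.4 to 40.6 CPM (6.12 ± 0.76) and the arginine transporter Slc7a2 at 0.565 to 0.823 against 8.82 to 13.1 CPM (4.04 ± 0.33). Nos2 stayed at 0 to 0.661 CPM in the 6 libraries. Of the 18 genes of arginine and polyamine metabolism 4 were higher and 1 lower.

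Iron genes had 8 of 24 members in each direction, and 4 or 5 lower without microglia replicate 39, 40 or 41 or parabiotic replicate 11 or 15. Slc40a1 (ferroportin), the only known iron exporter, was at 178, 183 and 152 against 9.82, 11.2 and 5.74 CPM (-4.26 ± 0.41, edgeR adjusted p = 2.64e-05). The heme transporter Slc48a1 (49.4 to 54.5 against 184 to 265 CPM, 2.09 ± 0.32) and the storage chain Fth1 (3079 to 4438 against 8097 to 10189 CPM, 1.38 ± 0.27) were higher. The glutamate transporter Slc1a3 was at 151, 137 and 89 against 0, 1.16 and 2.03 CPM (-6.89 ± 0.91), and amino acid transporters as a list had 10 of 33 higher, 6 without microglia replicate 40, and 7 lower.

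Potassium channels, which set the membrane voltage and ATP responses of microglia, had 10 of 27 lower and 4 higher. Kcnma1, a calcium-activated channel, was at 14.2, 28.3 and 27.6 CPM in microglia and 0, 0.0608 and 0 CPM in parabiotic libraries (edgeR adjusted p = 1.68e-05). Kcnk6, a leak channel, was at 264 to 446 against 49.7 to 58.6 CPM (-2.77 ± 0.37). Kcnn4, another calcium-activated channel, was higher, at 2.51 to 9.12 against 95 to 126 CPM (4.26 ± 0.48). Kcnk13, a leak channel of microglia, was at 97.7 to 107 against 83.1 to 91.6 CPM and was not called (-0.25 ± 0.16).

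The lists of the respiratory chain and the mitochondrial ribosome moved by small amounts. So did genes of the cytosolic ribosome, which took 0.182% to 0.212% of the counts in microglia and 0.285% to 0.305% in parabiotic libraries. Whether these shifts share a cause was not tested. Nuclear genes of the respiratory chain had 23 of 59 higher and 0 lower (median 0.62), and those of the mitochondrial ribosome 23 of 77 higher and 0 lower (median 0.58). Cox5a was at 27, 28.2 and 36.7 against 75.2, 72.4 and 69.5 CPM (1.24 ± 0.30, edgeR adjusted p = 0.00736), and Mrpl28 at 27.3 to 34.2 against 59.2 to 65 CPM (1.05 ± 0.17). The number of respiratory genes called was 8 and 3 without microglia replicates 39 and 40, 10, 9 and 12 without parabiotic replicates 3, 11 and 15, 15 under upper quartile scaling and 53 with only the 6 libraries in the fit. For the mitochondrial ribosome it was 10 and 8 without microglia replicates 39 and 40, 10 and 15 without parabiotic replicates 11 and 15, 38 without transgenic replicate 27 and 52 with only the 6 libraries. In glycolysis Pfkp (5.28 to 9.56 against 109 to 174 CPM, 4.25 ± 0.46) was higher. The kinases Hk2 (182 to 239 against 50.1 to 60.4 CPM) and Pfkfb3 (376 to 431 against 140 to 173 CPM) were lower. With 4 of 28 in each direction (14.3%), this list had smaller shares of calls than all tested genes (17.4% and 17.9%). The number lower was 10 without microglia replicate 39 and 2 without microglia replicate 40 or 41 or parabiotic replicate 15, and the number higher was 2 without microglia replicate 39 or 40 or parabiotic replicate 3.

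Genes of cell division were lower in the parabiotic cells. Of 30 mitotic genes 29 were lower and 1 higher (median -2.55), and of 36 genes of DNA replication 16 were lower and 1 higher (median -0.66). Mki67 was at 77.6, 107 and 145 CPM in microglia and 17.7, 17.6 and 18.5 CPM in parabiotic libraries (-2.62 ± 0.27, edgeR adjusted p = 3.57e-05), and Foxm1, which drives the mitotic program, at 24.2 to 48.8 against 2.03 to 5.28 CPM (-3.41 ± 0.41). The helicase loader Mcm10 (15.1 to 26.1 against 1.09 to 2.21 CPM, -3.55 ± 0.42) was lower, and the clamp Pcna was not called (34.3 to 40.7 against 32 to 34.3 CPM). Cenpa, the centromeric histone, was the mitotic member that went the other way, at 30.2, 42.9 and 56.3 against 102, 94.8 and 80.3 CPM (1.10 ± 0.21, edgeR adjusted p = 0.00201).

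**Figure D4:**
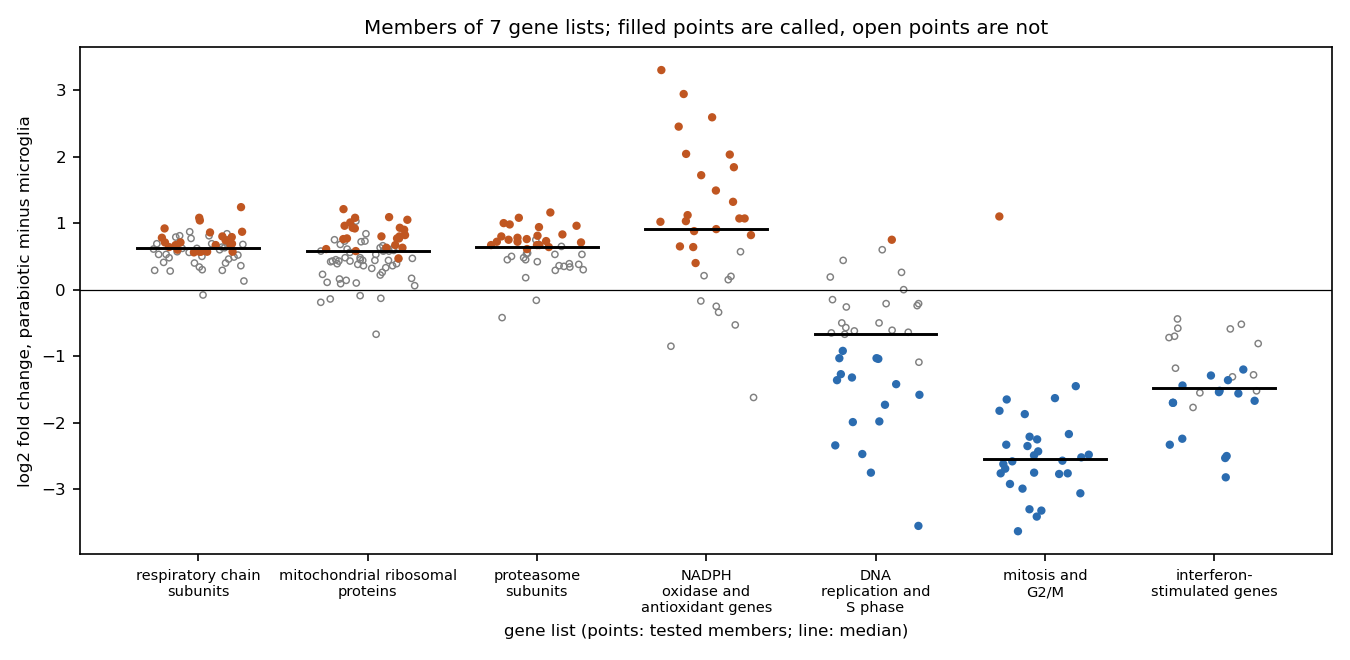
Log2 fold change of every tested member of 7 gene lists, 1 point per gene, filled where called and open where not, with a line at each median. The called respiratory, mitochondrial ribosomal, proteasome and redox genes lie above 0, and the mitotic genes below 0 apart from Cenpa.

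Markers of other cell types were read in every library, and their part in the results above was not tested. Monocyte markers were higher in the parabiotic cells (12 of 16, 0 lower, median 3.60), with the summed level at 2354 to 2625 CPM in microglia and 7009 to 8761 CPM in parabiotic libraries. Ly6c2 was at 0 to 0.113 against 13.1 to 20.1 CPM and Chil3, a chitinase-like protein of monocytes and neutrophils, at 0.0614 to 0.0847 against 67.7 to 145 CPM. Thbs1 and Ccr2, described above, are on this list as well. Thbs1 alone made up most of the sum in each parabiotic library and little of it in microglia. The gap between the sums thus rests largely on that gene. Neutrophil markers differed between the parabiotic libraries themselves, with a summed level of 211, 1230.3 and 358 CPM in replicates 3, 11 and 15, against 413 to 492 CPM in microglia. S100a8 was at 5.05, 202 and 23.2 CPM there and at 0.0317 to 0.154 CPM in microglia, Ltf at 0.718, 148 and 21.1 CPM and Ngp at 0.316, 189 and 27.1 CPM, while Csf3r made up most of the sum in microglia (409.6 to 489 CPM). Of the 8 tested neutrophil markers 6 were higher and 1 lower, with 2 higher under limma-voom and 12 without parabiotic replicate 3, which let further markers be tested.

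Antibody transcripts went both ways, and transcripts of natural killer receptors were higher in the parabiotic libraries. Igha was at 0, 0 and 0.0317 CPM in microglia and 83.4, 69.7 and 38.7 CPM in parabiotic libraries, and Igkc at 0.0307 to 0.0565 against 61.1, 50.6 and 26.4 CPM. Ighd, the heavy chain of naive B cells, was lower (3.61 to 5.73 against 0.201 to 0.516 CPM, -3.96 ± 1.03, edgeR adjusted p = 0.0118), but not called without parabiotic replicate 3 (adjusted p = 0.0513). Ighm was at 194 to 256 against 71.8 to 135 CPM and was not called (-1.31 ± 0.76), but passed with only the 6 libraries in the fit (adjusted p = 0.00189) or without transgenic replicate 27 (adjusted p = 0.0178). The summed level of the B and plasma cell list overlapped between the groups (468 to 601 against 511 to 596 CPM), and 8 of its 15 members were higher and 1 lower. Klrk1 was at 0.158 to 0.553 against 60.4 to 91.1 CPM and Klrd1 at 0.158 to 0.798 against 50.1 to 70.1 CPM, but only 5 of the 14 markers of natural killer cells passed the filter on low counts, and Klr genes have close copies. T cell markers had 0 of 4 called, with sums of 5.4 to 20.8 against 17.6 to 41.4 CPM. For T cells 9 of 13 names were not tested.

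Among markers of other cells of the brain, those of astrocytes and neurons had higher sums in the microglia libraries. Of the tested members 4 of 10 astrocyte and 5 of 5 neuronal markers were lower in the parabiotic cells. For oligodendrocytes 2 of 10 were lower and 1 higher, and for endothelial and mural cells 1 of 11 was lower. The summed astrocyte markers were at 193, 188 and 114 CPM in microglia and 18.5, 21.4 and 21.9 CPM in parabiotic libraries, with Gfap at 9.88 to 23.2 against 1.46 to 1.67 CPM (-3.41 ± 0.32). Slc1a3 made up most of the astrocyte sum in microglia. Neuronal markers were at 6.96 to 9.27 against 0.182 to 1.58 CPM in sum. Oligodendrocyte markers met at 285 CPM (285 to 414 against 235 to 285 CPM), with Mbp, a myelin protein gene, higher in the parabiotic cells (46.6 to 61.7 against 121 to 138 CPM, 1.23 ± 0.28) and Cspg4, a precursor and pericyte marker, lower (48, 119 and 201 against 1.52, 2.46 and 3.55 CPM). Endothelial and mural markers stayed at 47.5 to 51.3 against 32.2 to 44.9 CPM. Markers of border-associated macrophages, which line vessels and meninges, summed to 1529.6 to 1633 against 1693 to 2015 CPM. Among them Ms4a7 and the platelet factor gene Pf4 (9.66 to 19.3 against 67.3 to 80.8 CPM) were higher, and the lower calls for Lyve1 and Cd163 ended without single libraries (adjusted p = 0.0511 to 0.0876).

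**Figure D5:**
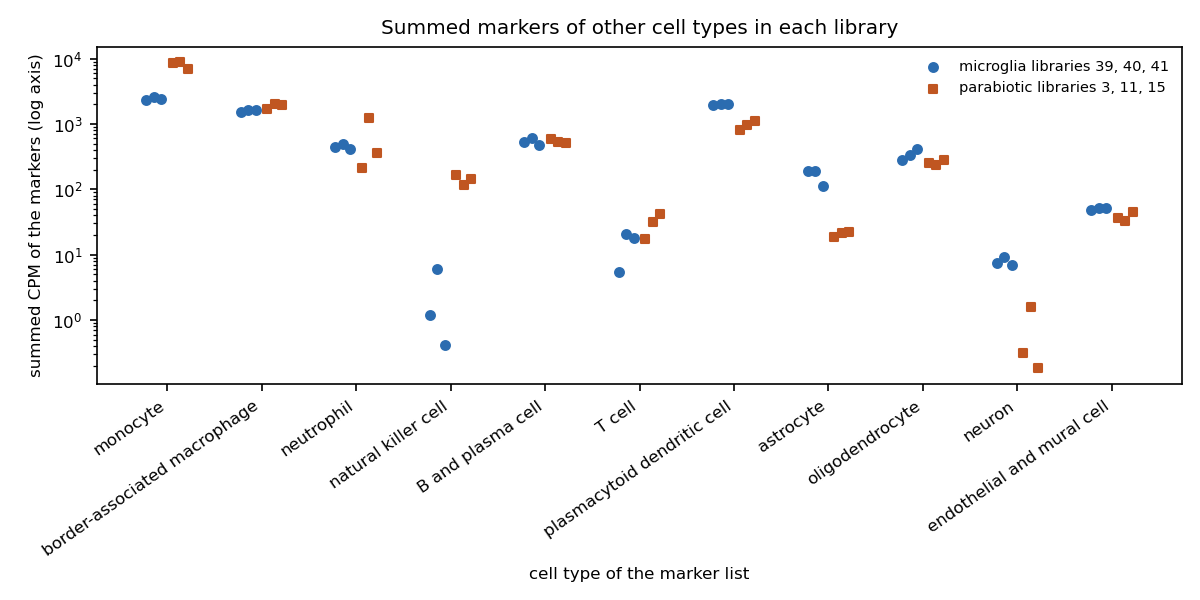
Summed level of marker genes of other cell types in each of the 6 libraries (CPM after TMM scaling, log scale, 1 point per library). Natural killer and monocyte markers are higher in parabiotic libraries, astrocyte and neuronal markers in microglia, and neutrophil markers are highest in parabiotic replicate 11.

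A few genes had no count at all in 1 population and at least 1 CPM in every library of the other, 12 in parabiotic cells and 14 in microglia. Beside Htr7 the first group held the cadherin gene Cdh17 (15, 5.05 and 9.05 CPM, at least 322-fold higher), Ffar2, a receptor of short-chain fatty acids (8.01, 5.14 and 9.93 CPM, at least 255-fold) and the class II chain H2-Eb2 (4.51, 3.74 and 6.86 CPM, at least 167-fold). Beside Adora1 the second group held the homeobox factor Prox1 (20.6, 31.1 and 17 CPM, at least 769-fold lower in parabiotic cells), the factor Ebf3 (11.4, 6.17 and 4.87 CPM, at least 251-fold) and the retinoid receptor Rxrg (7.06, 5.89 and 5.63 CPM, at least 208-fold). These bounds use a floor of 3 counts over the group and cover counting error alone.

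Several of the calls with the lowest p lay outside the gene lists. Pmp22, a membrane protein best known from myelin, was at 676, 593 and 591 CPM in microglia and 12, 13.6 and 11.9 CPM in parabiotic libraries (-5.63 ± 0.25, edgeR adjusted p = 3.75e-07). Phgdh, the first enzyme of serine synthesis, was at 67.2, 47.6 and 49.3 against 1.49, 1.73 and 1.7 CPM (-5.06 ± 0.22), and Hcar2, the receptor of niacin and ketone bodies, at 258, 193 and 267 against 9.08, 11.1 and 11.6 CPM (-4.50 ± 0.25). Bmpr1a, a receptor of bone morphogenetic proteins, was at 28.7, 29.2 and 29.5 against 0.804, 0.487 and 0.364 CPM (-5.71 ± 0.30). On the other side Crip1, a small LIM domain protein, was at 9.77, 11.1 and 10.6 against 229, 190.1 and 205 CPM (4.31 ± 0.18, edgeR adjusted p = 3.75e-07), and Shtn1, known from axon growth, at 9.32 to 11.9 against 84.3 to 102 CPM (3.20 ± 0.17). The glycosyltransferase St3gal6 (143 to 199 against 1.95 to 2.76 CPM, -6.28 ± 0.39) and the fructose transporter Slc2a5 (188 to 269 against 0.316 to 1.28 CPM, -8.45 ± 0.92) were among the lower genes, and the interferon-induced Ifitm1 (0.095 to 0.311 against 146 to 233 CPM, 9.68 ± 0.88) and the glycosyltransferase B3gnt5 (0 to 0.154 against 53.2 to 122 CPM, 10.12 ± 1.22) among the higher ones. None of the calls in this paragraph was lost with another scaling, filter, test against no change or set of libraries tried; the 2-fold minimum was counted over all genes only.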

How the data were processed

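RNA was sequenced from 10 libraries of cells sorted from the ischemic mouse brain, and the 6 libraries of parabiotic CD11c-eYFP+ cells and microglia were compared. The authors deposited whole-number counts per Ensembl gene, 1 column per library. Per the submitters' processing notes, STAR 2.5.3a, FastQC 0.11.5, DESeq2 and GRCm38 were used. Neither the labels nor the notes name the counting program, its annotation or its strand setting. Per the labels' protocols the cDNA was amplified before library preparation, so reads are not independent molecules, and the floor of 3 counts covers counting error only. The 95% intervals come from the fit and include its estimate of the spread between libraries. Reads of overlapping or near-identical genes cannot be told apart in such counts.

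From the deposited counts, symbols were added from GENCODE on GRCm38 (28492 of 28585 identifiers), TMM factors were computed with edgeR 4.0.16 in R 4.3.3, and filterByExpr by group removed 13434 genes. One robust quasi-likelihood fit held all 10 libraries in 3 groups (parabiotic, microglia and transgenic CD11c), so that they share the estimate of the spread. The contrast was parabiotic minus microglia, with Benjamini-Hochberg adjustment over 15151 genes. Standard errors are the log2 fold change divided by the root of the F statistic. Levels compared between genes were divided by exon length from the same annotation. The procedure was tested on simulated data, where 15 of 100 genes changed 2-fold and 64 of 100 changed 4-fold were called. In that run 3 unchanged genes were called, and 0 in a run without changes. Alternatives were other scalings (RLE, upper quartile), tests (DESeq2 1.42.0, voom of limma 3.58.1), filters (none, or at least 5 CPM in 3 libraries), dispersion, groupings, a 2-fold minimum, and each library left out.

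The libraries compared, the gene lists and the rules were chosen with earlier results of these data known. Named genes were the markers and reporter genes, the 12 highest and 12 lowest folds and the 12 lowest p in each direction among called genes with at least 20 CPM and no overlap, the 15 most abundant genes per kilobase, the 12 most abundant with an interval inside -0.5 to 0.5, up to 4 and 3 called members of each list by lowest p, and members not called. The report also names Adora1, Adora2a, Adora2b, Alox5, Ccr1, Ccr4, Cd209a, Cd80, Ciita, Clec7a, Entpd1, Gclm, Gsr, H2-DMb1, H2-Eb2, H2-Oa, Il1b, Itgae, Lgals3, Lyve1, Ngp, P2rx4, P2rx7, P2ry13, Plin2, Prdx1, Smad3, Timp2, Txnrd1 and Vcam1, and the genes with counts in 1 population only, chosen after their values were seen. Some members of the lists are counted but not reported by name here. Promoter sequences are those of RefSeq.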

Additional observations from a re-analysis of the deposited data

How the results depend on the processing

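The fit called 2633 genes higher and 2714 lower in the parabiotic cells. Leaving out each library in turn gave 1683 to 3249 higher and 2064 to 3209 lower, with the lowest counts without microglia replicate 40. The 6 compared libraries alone gave 3782 and 3698, transgenic replicates 26 and 27 as a group of their own 3401 and 3537, DESeq2 2882 and 3195, limma-voom 2545 and 2697, no filter 2300 and 2621, and the stricter filter 1863 and 1996. RLE scaling gave 2545 and 2780, and non-robust dispersion 2642 and 2728. Upper quartile scaling gave 2292 and 3023, with the median of all genes at -0.1. Tested against a 2-fold minimum, 1026 genes were higher and 1259 lower. Of 4337 values of named genes under alternatives, 4263 kept direction and call, 34 lost the call, 18 gained it and 22 changed sign. The sign changed only for genes that were not called. C3ar1 (0.03) was at -0.05 with upper quartile scaling, -0.03 with the stricter filter and -0.07 to 0.13 with a library left out. Nr4a1 (0.04) was at -0.04, -0.02 and -0.1 to 0.17 in the same order. Nos2 (0.97) was at -0.14 with limma-voom and -1.08 to 1.78 with a library left out. With a library left out, Ptgs2 ran from -1.04 to 0.21, Zeb2 from -0.11 to 0.05, Itgb1 from -0.06 to 0.04 and Ccrl2 from -0.19 to 0.07. Calls were lost for Ltf (adjusted p = 0.215), S100a8 (0.119) and Ngp (0.3) with limma-voom and for Csf3r without parabiotic replicate 3 (0.0518). Ctsd (0.0381) and Fos (0.0459) were called with the 6 libraries alone. The causes of these changes were not tested. Of 2318 counts of list members, 144 moved by over 1.5 times. The stricter filter, which tests fewer members, left 2 lower C-type lectins, 2 lower CXC chemokines, 3 higher Fc receptor genes, 4 higher genes for the clearance of dead cells, 8 higher TNF genes, 6 higher growth factors, and 2 higher and 5 lower potassium channels. No paired analysis was possible because the groups compared share no replicate number. With 3 libraries a group, a gene that was not called is not shown to be alike: 9036 uncalled genes had intervals that reached past -0.5 or 0.5.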
